A study of Rattus norvegicus with 24 samples.

Results

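Lung RNA of rats that inhaled hexanal at 1500 ppm (high-dose group, 6 rats) was compared with lung RNA of rats that inhaled 1000 ppm (middle-dose group, 6 rats). The 12 arrays were chosen by the dose in their sample labels out of the 24 arrays of the series, 1 rat to an array, and the clean air group took no part in any test. All 12 were Fischer-344 rats with a stated age of 7-8 weeks, with 3 males and 3 females at each dose, and no genetic change is given for them. The study's text gives 7 weeks as the age at purchase, before acclimation and exposure. Exposure was for 4 h a day on 5 days a week. The study's text gives 4 weeks and doses in ppm, whereas the treatment protocol in the labels gives 5 weeks and the same dose numbers in mg per cubic meter. The comparison asks what differs in the lung between the 2 upper doses.

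Hexanal is a short straight-chain aldehyde that is released by building materials, by cooking and by the breakdown of membrane lipids. In the lung, aldehydes are oxidized by aldehyde dehydrogenases, reduced by aldo-keto reductases and joined to glutathione, and the secretory cells of the small airways hold much of the lung's cytochrome P450. Lung cells also carry a circadian clock, in which Bmal1 with Clock or Npas2 switches on Per, Cry, Nr1d and Dbp genes through E-box elements and is in turn held back by their products, so that Bmal1 and Npas2 are high at the time of day when Dbp and Per2 are low. Immediate early genes such as Fos and Dusp1 are switched on within minutes by growth factors, stress or handling of the tissue.

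The measurement was a single-colour Agilent rat array, on which each lung RNA was labeled with Cy3 and hybridized alone. A level is the log2 of the spot signal minus the 75th percentile of its own array, so that 0 is that percentile, and each difference is 1500 ppm minus 1000 ppm on this log2 scale. The 75th percentile of the signal was 2387 to 3133 at 1000 ppm and 1701 to 2948 at 1500 ppm, and 72.9% to 81.9% of the probes were well above background on each array. The arrays lay on slides of 4 that held rats of 1 sex each. Rats 13 (1000 ppm) and 16, 17 and 18 (1500 ppm), all males, shared a slide, and so did the females 33 (1000 ppm) and 36, 37 and 38 (1500 ppm). Rats 11, 12, 31 and 32 (1000 ppm) lay on 2 slides without high-dose rats, so a comparison within slides rests on 1 middle-dose rat of each sex. The lists of lung markers had their main genes well above background on all 12 arrays, among them 9 of 9 tested surfactant and type II cell genes and 9 of 9 type I cell genes.

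A gene was called where the doses differed 1.5-fold or more with a limma p-value under 0.05 before adjustment. Of 21132 genes, 128 (0.606%) were called, 63 (0.298%) higher at 1500 ppm and 65 (0.308%) lower. The genes called higher included Dbp and Per2 of the circadian clock, and those called lower included the immediate early genes Fos and Dusp1, the clock genes Bmal1, Npas2 and Nfil3, and the chemokine Ccl11. None of the 21132 passed a Benjamini-Hochberg adjusted limma p-value of 0.05 (smallest adjusted p = 0.492), while before adjustment 1083 (5.12%) were under 0.05. Of the 128 called genes, 78 had a gene symbol, 127 differed in the same direction in both sexes and 120 in both shared slides. The same rats gave the calls, so this agreement was largely set by the selection and is no separate support. With each rat left out in turn, 48 of the 128 were called in all 12 fits. After normexp background correction 87.7% of the calls were higher (128 against 18 lower) instead of 49.2%. The authors' table without scaling gave 7.19% higher calls, and keeping dim probes gave 64.2%. The p-values set each difference against the spread between these 12 rats, and the number of arrays limits their precision. The main fit and the exact permutation tests given below leave out sex and slide. Rats 11, 12, 31 and 32 lay on slides without high-dose rats, so these p-values cannot tell dose wholly apart from slide. With the slide as a random block the correlation within slides was 0.23.

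Promoters are shown for 3 called clock genes, for the called immediate early genes Dusp1 and Nr4a1 and for Btg2, the immediate early gene with the smallest p-value, because each holds a short element known from textbooks to act in its group. The sequences are those of RefSeq on the build GRCr8, 250 bases before to 50 after the gene's start, written 5′ to 3′ along the gene. In the clock group the capitals mark the D-box TTATGNAA in Per2 (chr9:99496944-99497243, minus strand), the E-box CACGTG in Ciart (chr2:186112197-186112496, minus strand) and the core of the ROR element, AGGTCA, in Bmal1 (chr1:176766078-176766377, plus strand).
Per2: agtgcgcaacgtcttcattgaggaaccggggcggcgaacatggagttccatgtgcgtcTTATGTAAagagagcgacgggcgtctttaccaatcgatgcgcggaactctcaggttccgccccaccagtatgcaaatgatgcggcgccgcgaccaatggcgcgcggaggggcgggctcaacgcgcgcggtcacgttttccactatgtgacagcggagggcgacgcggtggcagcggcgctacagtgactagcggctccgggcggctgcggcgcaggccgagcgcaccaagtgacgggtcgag
Ciart: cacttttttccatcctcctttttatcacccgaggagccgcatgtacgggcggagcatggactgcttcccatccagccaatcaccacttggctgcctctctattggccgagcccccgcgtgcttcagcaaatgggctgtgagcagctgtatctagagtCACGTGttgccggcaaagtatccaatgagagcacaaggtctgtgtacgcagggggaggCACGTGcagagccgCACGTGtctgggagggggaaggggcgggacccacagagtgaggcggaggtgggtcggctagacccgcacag
Bmal1: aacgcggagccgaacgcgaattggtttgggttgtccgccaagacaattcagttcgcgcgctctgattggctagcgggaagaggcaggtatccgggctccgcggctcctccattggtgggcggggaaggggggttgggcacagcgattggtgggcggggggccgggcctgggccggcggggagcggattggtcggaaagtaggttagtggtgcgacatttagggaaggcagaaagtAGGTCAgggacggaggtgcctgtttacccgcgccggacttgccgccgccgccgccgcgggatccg

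Both strands were searched. Among 33469 rat promoters of 300 bases, the D-box form was in 3.66%, the E-box in 6.42% and the ROR core in 16.2%. Of the 14 clock genes tested that had a promoter sequence, 1 held the D-box form (Per2), 3 the E-box (Bhlhe40, Ciart and Tef) and 2 the ROR core (Bmal1 and Nr1d2). The Ciart window held the E-box at 3 places that did not overlap. In the immediate early group the capitals mark TGACG or its reverse complement CGTCA, known as a single arm of the cyclic AMP response element, in Dusp1 (chr10:17184603-17184902, plus strand), Btg2 (chr13:48087641-48087940, minus strand) and Nr4a1 (chr7:134259888-134260187, plus strand).
Dusp1: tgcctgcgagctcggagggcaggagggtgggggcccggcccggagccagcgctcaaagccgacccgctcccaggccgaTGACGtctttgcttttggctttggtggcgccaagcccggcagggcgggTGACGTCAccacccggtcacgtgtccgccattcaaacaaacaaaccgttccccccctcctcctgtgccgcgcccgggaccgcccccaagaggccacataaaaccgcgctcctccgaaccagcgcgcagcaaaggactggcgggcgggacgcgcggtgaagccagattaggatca
Btg2: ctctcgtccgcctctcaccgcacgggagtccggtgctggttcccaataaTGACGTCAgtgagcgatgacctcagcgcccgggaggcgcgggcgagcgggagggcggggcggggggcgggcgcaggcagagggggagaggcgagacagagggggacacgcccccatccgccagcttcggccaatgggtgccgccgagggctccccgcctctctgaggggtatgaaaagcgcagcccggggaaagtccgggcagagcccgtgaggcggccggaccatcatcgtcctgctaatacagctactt
Nr4a1: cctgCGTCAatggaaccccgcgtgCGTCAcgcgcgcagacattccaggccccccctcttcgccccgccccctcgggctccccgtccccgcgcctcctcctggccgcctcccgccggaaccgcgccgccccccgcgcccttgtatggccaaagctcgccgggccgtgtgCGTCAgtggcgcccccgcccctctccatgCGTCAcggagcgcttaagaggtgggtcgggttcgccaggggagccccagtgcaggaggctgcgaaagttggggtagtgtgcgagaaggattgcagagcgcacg

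The motif occurred 3 times in Dusp1 and 2 times in Btg2, where 1 pair in each overlapped as the full palindrome, and 4 times in Nr4a1 without overlap. It was in 11 of the 18 immediate early genes tested that had a promoter sequence and in 21.2% of all promoters. These matches describe the windows and are no measure of binding.

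Of 15 circadian clock genes tested, 3 were called higher at 1500 ppm (Dbp, Per2 and Ciart) and 3 were called lower (Bmal1, Npas2 and Nfil3), against 0.298% and 0.308% of all genes. Ciart passed the filter on dim probes only through the high-dose group, where it was higher, so its call adds nothing to that count. Dbp, a clock output factor that binds D-boxes, ranged from 0.28 to 2.99 (median 1.89) at 1000 ppm and from 2.17 to 3.56 (median 3.09) at 1500 ppm. The 4 highest levels were those of high-dose rats, and the groups overlapped. Its difference was 1.29 (standard error 0.46), a fold of 2.45, with an adjusted limma p-value of 0.903. The exact permutation test, 6 rats against 6 and two-sided, gave p = 0.026. All 3 probes of Dbp were higher, by 1.24 to 1.35. Per2, a repressor within the clock loop, ranged from -2.71 to -1.25 (median -1.83) at 1000 ppm and from -1.58 to -0.46 (median -1.16) at 1500 ppm. Again 4 high-dose rats lay above every middle-dose rat, and the difference was 0.79 (standard error 0.26, exact permutation p = 0.0195). Ciart, another repressor of the loop, differed by 0.84 (standard error 0.36) but was well above background on 3 of 6 arrays at 1000 ppm and 5 of 6 at 1500 ppm. Nr1d2, which represses Bmal1, differed by 0.58 with an unadjusted limma p-value of 0.0362 and fell just short of the fold threshold.

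Bmal1, the activator of the loop, ranged from -0.82 to 0.50 (median 0.11) at 1000 ppm and from -1.07 to -0.22 (median -0.82) at 1500 ppm. The groups overlapped, with the middle-dose rats 13 (-0.82) and 31 (-0.46) among the high-dose levels. Bmal1 differed by -0.73 (standard error 0.23, exact permutation p = 0.0216), and its second probe by -0.73 as well. Npas2, which can take the place of Clock, ranged from -0.57 to 0.55 (median 0.22) and from -1.08 to -0.02 (median -0.68), a difference of -0.67 (standard error 0.22, exact permutation p = 0.0216). A second probe of Npas2 differed by -0.06. Nfil3, which represses genes through D-boxes, differed by -0.75 (standard error 0.26), and 5 of 6 high-dose rats lay below every middle-dose rat. Without rat 12 neither Npas2 nor Nfil3 was called, nor was Npas2 without rat 18. Ciart was called in 4 of the 12 fits that left out a rat. Clock itself differed by -0.03, Per1 by -0.12, Per3 by 0.17, Cry1 by 0.13, Cry2 by 0.22 and Nr1d1 by 0.25, none of them called.

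Dbp, Per2, Ciart, Bmal1, Npas2 and Nfil3 were not called with the slide as a fixed block. Dbp, Per2, Bmal1 and Npas2 were called with the slide as a random block (1.09, 0.63, -0.66 and -0.62). In the shared slide of the males the middle-dose rat 13 had a Dbp level of 2.99 and a Bmal1 level of -0.82, both inside the range of the 3 high-dose males beside it, and the differences were 0.06 for Dbp, 0.07 for Per2, 0.09 for Bmal1 and -0.12 for Npas2. In the shared slide of the females they were 1.13, 0.44, -1.12 and -0.83. Of the 15 clock genes, 10 were lower in the shared slide of the males and 5 in that of the females. The medians of the list there were -0.15 and 0.37. With the slide as a fixed block, Dbp differed by 0.60 (standard error 0.39), Per2 by 0.25 (0.30), Bmal1 by -0.51 (0.28) and Npas2 by -0.48 (0.27). The time of day at which the tissues were taken is not given in the sources used here. In the clean air group Dbp ranged from -0.51 to 2.39 and Bmal1 from -0.14 to 0.59.

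**Figure D1:**
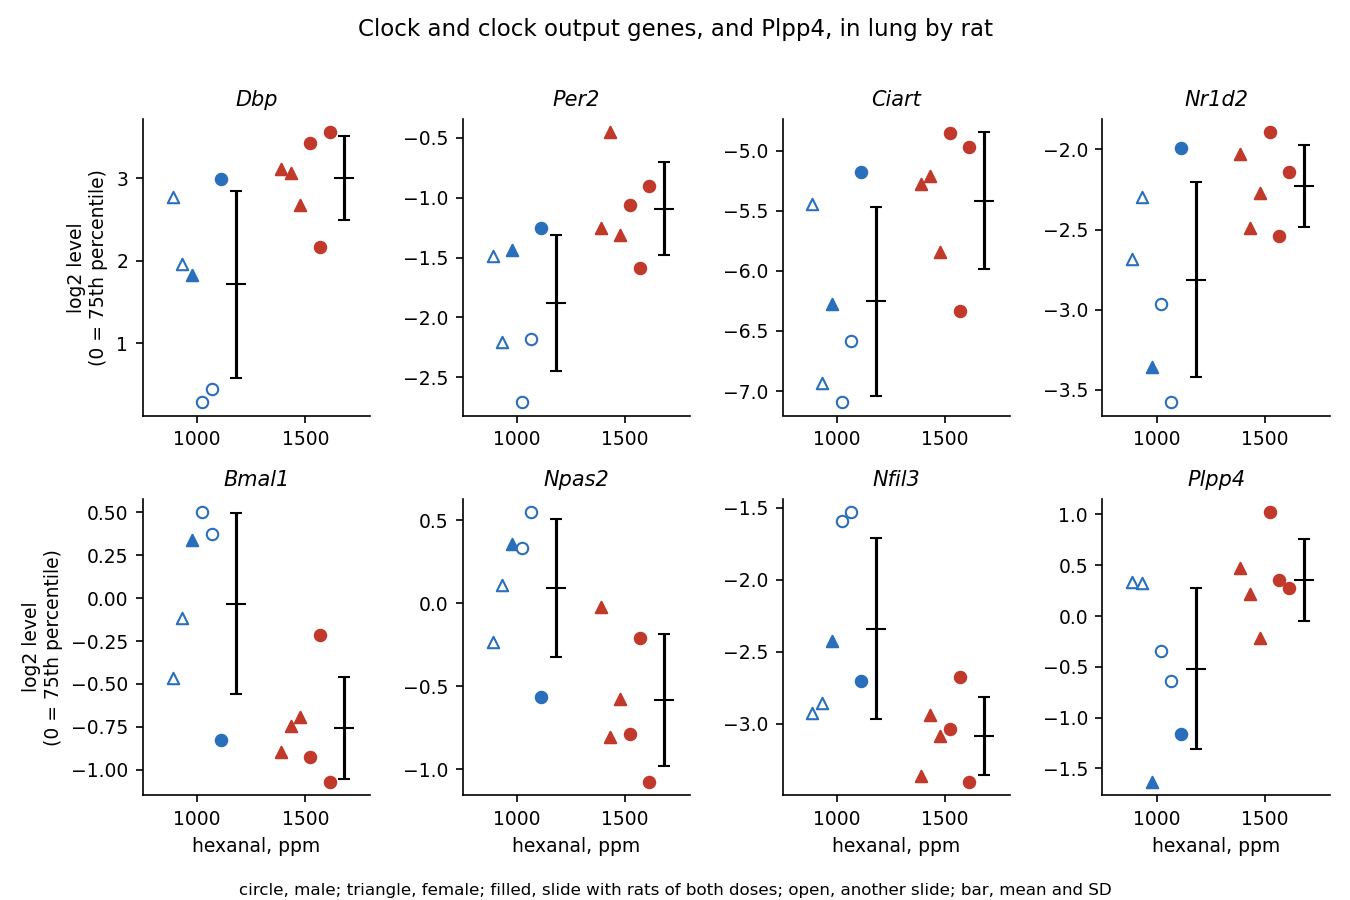
Log2 levels (vertical axes, 0 is the 75th percentile of the array) of 7 clock genes and of Plpp4 in each rat at 1000 and 1500 ppm hexanal (horizontal axes), with circles for males, triangles for females, filled symbols for the slides that hold both doses and bars for the mean and SD. For Dbp and Per2, 4 high-dose rats lie above every middle-dose rat, and the filled middle-dose male (Dbp 2.99) lies among the high-dose males.

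Of 26 immediate early genes tested, 18 had lower and 8 had higher levels at 1500 ppm. Their median difference was -0.26, against 0.01 over all genes, of which 51.6% had higher levels. Fos, Dusp1 and Nr4a1 were called lower and 0 were called higher, against 0.308% and 0.298% of all genes. Fos, a subunit of the transcription factor AP-1, ranged from -3.27 to 0.27 (median -0.52) at 1000 ppm and from -3.91 to -0.80 (median -2.95) at 1500 ppm. The groups overlapped, as the middle-dose female 32 (-3.27) lay below 5 of the 6 high-dose rats and the high-dose female 38 (-0.80) lay above 3 middle-dose rats. The difference was -1.66 (standard error 0.64, a fold of 3.16), with an adjusted limma p-value of 0.903 and p = 0.0519 in the exact permutation test. Without rat 13, 33 or 36 its unadjusted limma p-value was 0.0515 to 0.0535 and the call was lost. Dusp1, a phosphatase that switches off MAP kinases, ranged from -1.47 to 0.18 (median -0.24) and from -2.06 to -0.45 (median -1.16), a difference of -0.78 (standard error 0.31, exact permutation p = 0.0433). Without rat 12, 13, 33 or 36 it was not called.

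Btg2, which restrains cell division, had the smallest p-value of the group. It ranged from 2.68 to 3.54 (median 3.30) at 1000 ppm and from 2.45 to 3.23 (median 2.58) at 1500 ppm, and 5 of 6 high-dose rats lay below every middle-dose rat. Its difference of -0.58 (standard error 0.16, exact permutation p = 0.00649) was just short of the fold threshold. The nuclear receptor genes Nr4a1 and Nr4a2 differed by -0.59 and -0.40, the AP-1 gene Junb by -0.50 and Ier2 by -0.56, all with unadjusted limma p-values under 0.05. Without rat 12, 13, 16, 17, 18 or 33 Nr4a1 was not called. Egr1, a zinc finger factor, differed by -0.87 but spread from -2.49 to 1.23 among the high-dose rats, and the exact permutation p for its 6 rats against 6 was 0.19. Fosb differed by 0.07, Jund by 0.06 and Myc by 0.02, and none of them was called.

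Within the shared slides the differences of Fos were -2.67 in males and -2.80 in females, those of Dusp1 -1.40 and -1.28, and those of Junb -1.01 and -0.63. The only middle-dose rats there, 13 and 33, had the highest middle-dose levels of Fos (0.016 and 0.27) and of Dusp1 (0.18 and 0.15). The differences of these genes within slides and with the slide as a fixed block rest on those rats. Of the 26 genes, 22 were lower in the shared slide of the males and 19 in that of the females. With the slide as a fixed block the median of the list was -0.36, Fos differed by -2.73 (standard error 0.90) and Dusp1 by -1.34 (0.40), both called, with adjusted limma p-values of 0.372 for each. In the clean air group Fos ranged from -2.31 to 1.66 with a median of 0.42, above the medians of both doses. Arc, another activity-induced gene that was not on the list and was chosen after its value was seen, differed by -0.62, and by 0.11 under the normexp correction.

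**Figure D2:**
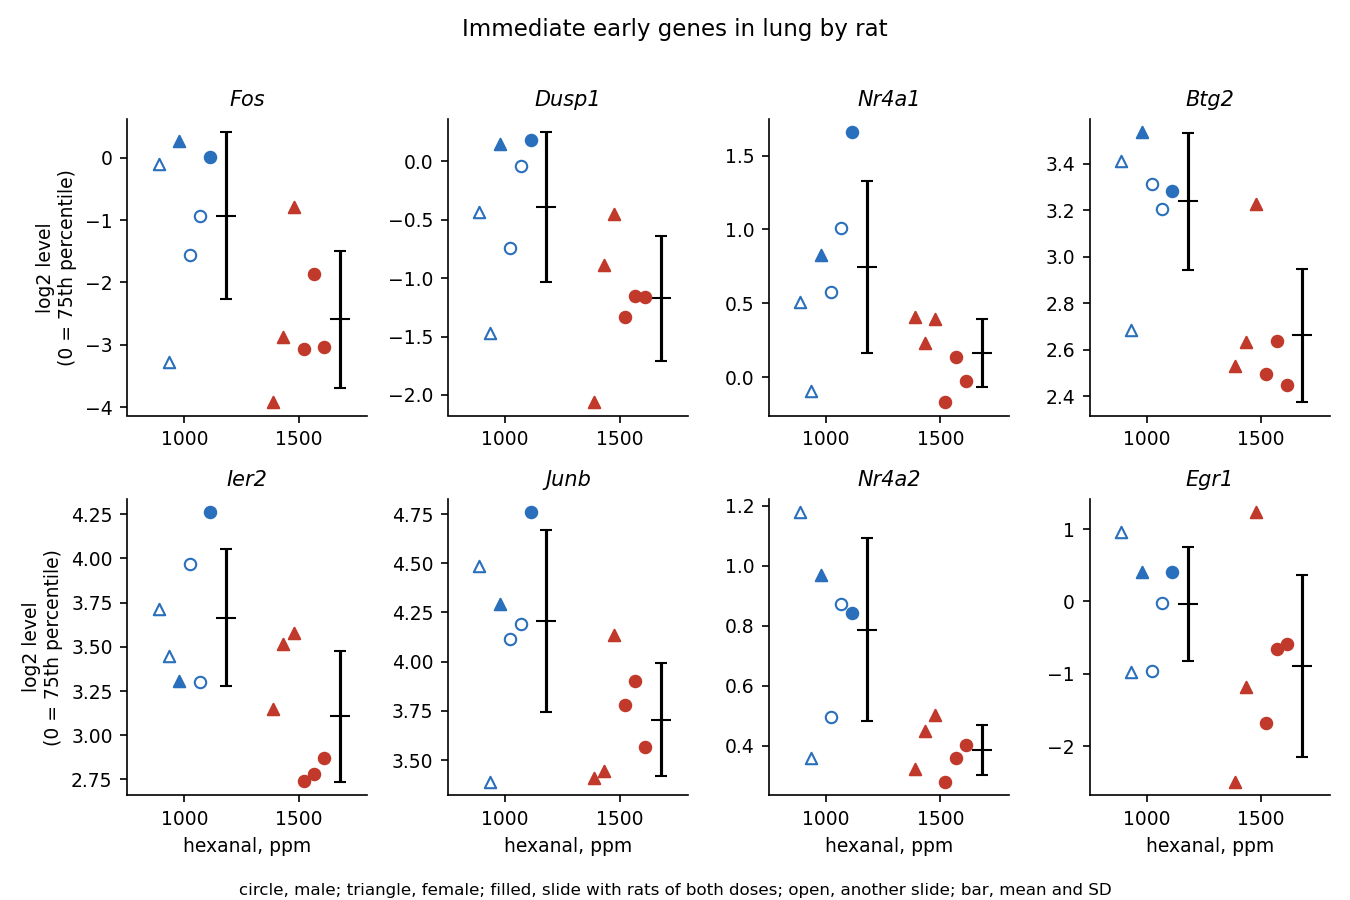
Log2 levels (vertical axes, 0 is the 75th percentile of the array) of 8 immediate early genes in each rat at 1000 and 1500 ppm hexanal (horizontal axes), with the same symbols for sex and slide and bars for the mean and SD. For Btg2, 5 of 6 high-dose rats lie below every middle-dose rat, while for Fos the groups overlap, with a middle-dose female at -3.27 and a high-dose female at -0.80.

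Among the other genes called higher, well above background at both doses and differing in the same direction in both sexes, the largest differences were those of Prim2 (0.97), Slitrk6 (0.91), Or6f1 (0.90), Plpp4 (0.87), Rexo5 (0.80) and Sbsn (0.76). Slitrk6, a membrane protein of the SLITRK family, ranged from -1.92 to -1.23 (median -1.80) at 1000 ppm and from -1.49 to -0.04 (median -0.90) at 1500 ppm. All but 1 of its high-dose rats lay above every middle-dose rat (standard error 0.24, exact permutation p = 0.00433). In the clean air group it ranged from -1.73 to -0.31 (median -0.94). Sbsn, the gene of the epidermal protein suprabasin, ranged from -6.24 to -5.49 (median -5.98) and from -5.53 to -4.59 (median -5.19), again with 5 of 6 high-dose rats above every middle-dose rat (exact permutation p = 0.00649). Slitrk6 and Sbsn were called in all 12 other settings and in all 12 fits that left out a rat.

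Plpp4, a phosphatase of membrane lipids, ranged from -1.63 to 0.34 (median -0.49) at 1000 ppm and from -0.22 to 1.02 (median 0.32) at 1500 ppm. The lowest levels were those of the middle-dose rats 13 and 33, which shared slides with the high-dose rats. Its difference of 0.87 (exact permutation p = 0.0325) became 1.75 with the slide as a fixed block, with a standard error of 0.22 and an adjusted limma p-value of 0.219. It was not called without rat 13. Prim2, the large subunit of DNA primase, was at -2.15, -2.38 and -1.87 in the middle-dose rats 11, 13 and 31. The middle-dose rats 12, 32 and 33 (-0.35, -0.66 and -0.67) lay inside the high-dose range of -0.68 to -0.03. Prim2 differed by 1.97 in the shared slide of the males and by 0.32 in that of the females. It was not called with the slide as a fixed block, although the difference was then 1.14 (standard error 0.51). The olfactory receptor gene Or6f1 was dim and well above background on 5 of 6 arrays of each dose. Its highest levels were those of the high-dose females 36 (-4.32) and 37 (-4.21). The other high-dose rats were at -6.07 to -5.73 and the middle-dose rats at -6.63 to -6.03. It was not called with the slide as a fixed block (0.82) or with array weights (0.57). Rexo5, an RNA exonuclease gene, was missing in rat 13, and its difference was 0.29 and not called in the authors' table without scaling.

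Among the other genes called lower, the differences were -1.38 for Galnt14, -1.19 for Prss35, -1.06 for Ltb4r, -1.02 for Idi2, -0.83 for Clip4, -0.81 for Ccl11 and -0.80 for Tiam1. Ccl11, or eotaxin, which draws eosinophils, ranged from 0.69 to 1.85 (median 1.67) at 1000 ppm and from -0.34 to 1.42 (median 0.74) at 1500 ppm. The groups overlapped, although 3 of 6 high-dose rats lay below every middle-dose rat (standard error 0.29, exact permutation p = 0.026). In the shared slides Ccl11 differed by -0.88 in males and -1.47 in females. The only middle-dose rats there, 13 and 33, had the highest middle-dose levels (1.85 and 1.81), with rat 12 close at 1.80. Clean air levels of Ccl11 ranged from -0.87 to 1.39 (median 0.55). Galnt14, which starts O-linked sugar chains, ranged from -2.77 to -1.32 and from -5.73 to -2.39, with the lowest levels in the high-dose rats 16 (-5.73) and 36 (-4.65). Without rat 11, 32 or 36 it was not called.

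Ltb4r, the receptor of the neutrophil attractant leukotriene B4, ranged from -5.84 to -3.72 (median -4.58) at 1000 ppm and from -6.25 to -4.82 (median -5.79) at 1500 ppm, with 5 of 6 high-dose arrays well above background. It was called in all 12 fits that left out a rat, but differed by -0.22 under the normexp correction. Idi2, an isoprenoid pathway enzyme, was at -3.25 in the middle-dose rat 11 and between -6.24 and -5.24 in the other middle-dose rats. It differed by -0.58 without rat 11, and was not called without that rat or any of 6 others. The exchange factor Tiam1 differed by -1.33 in females and -0.27 in males, and the difference between the sexes had an adjusted limma p-value of 0.904. Prss35 lost its call in 6 and Clip4 in 8 of the 12 fits that left out a rat. With the slide as a fixed block Tiam1 (-0.35), Ltb4r (-0.65), Galnt14 (-1.06), Idi2 (-0.45), Prss35 (-1.26) and Clip4 (-0.71) were not called. Under the normexp correction Tiam1 (-0.38), Idi2 (-0.09), Prss35 (-0.67) and Clip4 (-0.37) were not called either.

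Of 12 cytochrome P450 and monooxygenase genes tested, 8 were lower and 0 were called, with a median difference of -0.23. The other 4 were higher, by up to 0.42. In the shared slide of the males 6 of the 12 were lower (median 0.085), and in that of the females 10 (median -0.36). Cyp4b1, a lung P450 that oxidizes fatty acids and activates pneumotoxins, ranged from 1.82 to 2.53 (median 2.28) at 1000 ppm and from 1.51 to 1.95 (median 1.70) at 1500 ppm. The lowest middle-dose level was that of rat 13, inside the high-dose range, and the other 5 middle-dose rats lay above every high-dose rat. The difference was -0.54 (standard error 0.11, unadjusted limma p = 0.000418, adjusted p = 0.543, exact permutation p = 0.00433). Por, which passes electrons to all microsomal P450 enzymes, differed by -0.32 and Cyp2s1 by -0.35, each with an unadjusted limma p-value under 0.05. Cyp2b2 was not on the list and was chosen after its value was seen, and its probe may share signal with close relatives. It ranged from 3.63 to 3.94 (median 3.75) and from 3.06 to 3.50 (median 3.32). Its groups did not overlap, as in 52 of 21132 genes (0.246%), and the exact permutation p of 0.00216 is the smallest that 6 rats against 6 allow. Cyp2b2 differed by -0.44, under the fold threshold, and by -0.35 and -0.54 in the shared slides of males and females, whereas Cyp4b1 differed by -0.03 and -0.69 there.

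The enzymes that act on aldehydes gave 0 calls. For the counts that follow, 48.4% of all genes tested were lower and 5.12% had an unadjusted limma p-value under 0.05. Of 16 aldehyde dehydrogenases tested, 14 were lower with a median of -0.08, led by Aldh3a1 at -0.39 and Aldh9a1 at -0.16. Of 12 aldehyde reductases and alcohol dehydrogenases, 8 were lower with a median of -0.06, and Akr7a2 (-0.22) and Adh1c (-0.33) had the smallest p-values. Of 18 glutathione S-transferases, which join glutathione to electrophiles such as unsaturated aldehydes, 16 were lower with a median of -0.17, and 5 had an unadjusted limma p-value under 0.05, among them Mgst2 (-0.25) and Gstm2 (-0.24). In the shared slides 14 and 16 of the 18 were lower in males and females. Of 16 Nrf2 targets 7 were higher and 9 lower with a median of -0.01, and Osgin1 differed by -0.19. Of 18 antioxidant enzymes 13 were lower with a median of -0.04, with Prdx6 at -0.18 and Gpx2 at 0.22. A second probe of Gpx2 differed by 0.08.

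Of 7 airway secretory genes tested, 6 were lower with a median of -0.69, and Cyp2f4 was called lower. Cyp2f4, a P450 of the secretory cells, ranged from 3.94 to 4.94 (median 4.36) at 1000 ppm and from 2.63 to 4.42 (median 3.86) at 1500 ppm. The lowest levels were those of the high-dose rats 18 (2.63) and 38 (2.91), and without either rat it was not called, nor without rat 12, 16, 31, 32 or 33. Its difference was -0.69 (standard error 0.31, exact permutation p = 0.0563). The call was also lost with the slide as a fixed (-0.59) or random (-0.66) block, with quantile normalization, with all 24 arrays and with the methods' t-test. Scgb1a1, the main secretory protein of these cells, ranged from 6.79 to 7.22 at 1000 ppm and from 6.60 to 7.20 at 1500 ppm, a difference of -0.12. Bpifa1, a protein of the large airways, spread from -3.39 to 5.38 and from -3.52 to 6.10, and its difference was -1.37 with a standard error of 2.13. Of 6 motile cilium genes, 6 were lower and 0 were called, with a median of -0.39. In the shared slide of the males only 2 of the 6 were lower (median 0.08), against 6 in that of the females (median -0.40). Foxj1, the master factor of motile cilia, differed by -0.40 and Tekt1 by -0.50. The median level of the cilium list in each rat was 0.67 to 1.35 at 1000 ppm and -0.03 to 1.42 at 1500 ppm. In bulk tissue, fewer cells of a type and less RNA per cell cannot be told apart.

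Cardiac muscle genes had the widest spread of all lists. Of 10 tested, 10 were lower and 0 were called, with a median of -1.93. Only 7 of the 10 were well above background on all 12 arrays. Cardiac muscle sheathes the pulmonary veins of rats, so that a piece of lung can hold it. Myh6, the atrial heavy chain of myosin, ranged from -0.39 to 5.36 (median 4.06) at 1000 ppm and from -7.93 to 5.41 (median -0.43) at 1500 ppm, with 4 of 6 high-dose arrays well above background. Myh6 passed the filter on dim probes only through the middle-dose group, where it was higher, so its direction adds nothing to the count of 10. Rats 16, 18 and 38 were at -7.50, -3.47 and -7.93, and rats 36 and 37 were at 4.77 and 5.41, as high as the highest middle-dose rats. The difference was -4.30 with a standard error of 2.37 (exact permutation p = 0.145). Myl7, the atrial light chain, differed by -3.42 with a standard error of 1.98. In the clean air group Myh6 ranged from -8.30 to 3.46. The rats with the lowest Myh6 included the 2 with the lowest Cyp2f4, rats 18 and 38, and the part of muscle content in the airway values was not tested.

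**Figure D3:**
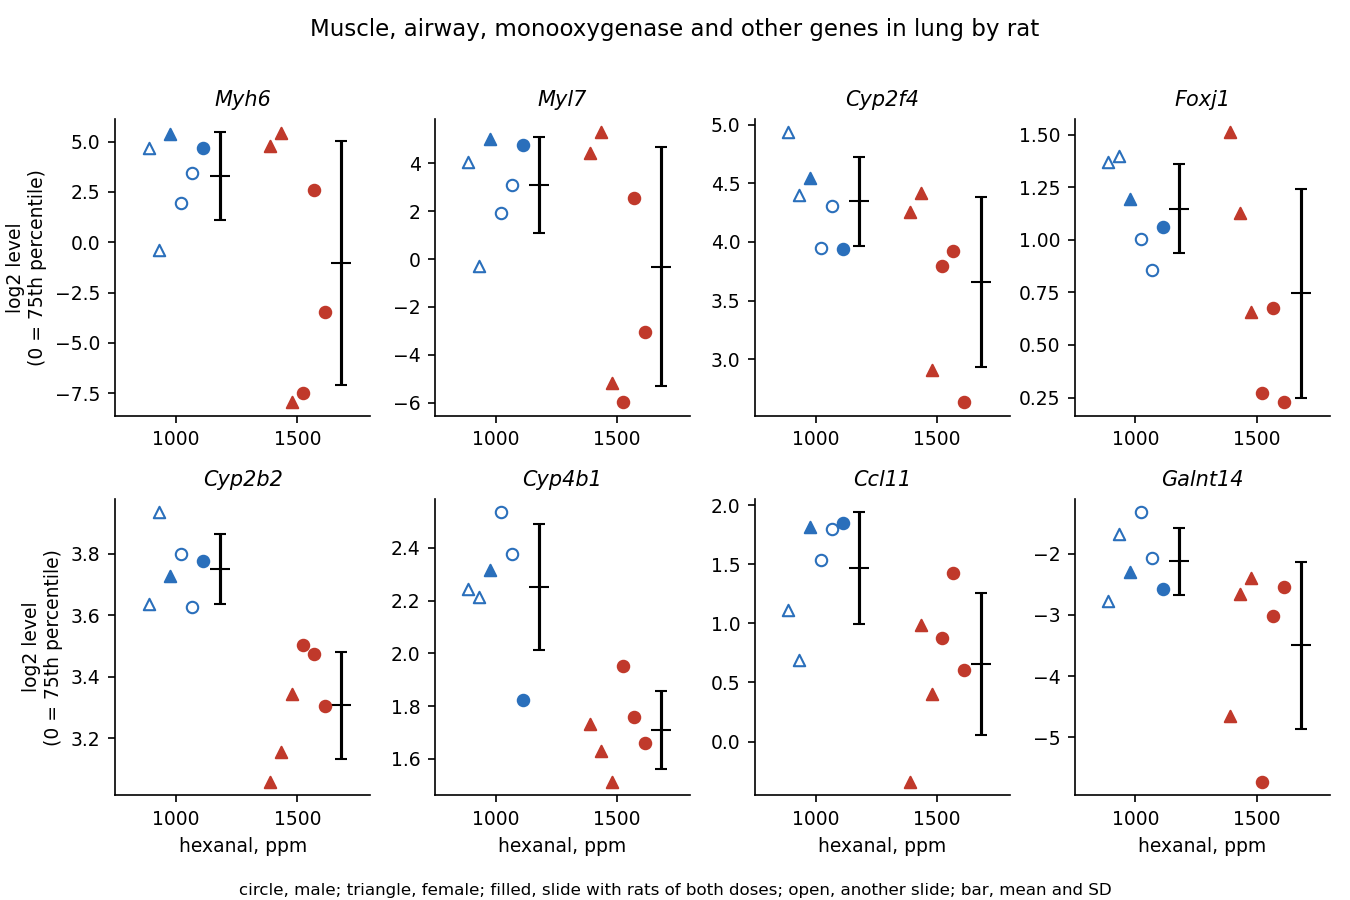
Log2 levels (vertical axes, 0 is the 75th percentile of the array) of cardiac muscle genes (Myh6, Myl7), airway genes (Cyp2f4, Foxj1), P450 genes (Cyp2b2, Cyp4b1), Ccl11 and Galnt14 in each rat at 1000 and 1500 ppm hexanal (horizontal axes), with the same symbols for sex and slide and bars for the mean and SD. Cyp2b2 is the gene without overlap, with 3.63 to 3.94 at 1000 ppm and 3.06 to 3.50 at 1500 ppm, while Myh6 spans from -7.93 to 5.41 among the high-dose rats.

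The remaining cell type markers gave 0 calls. Surfactant and type II cell genes had a median of -0.06 (7 of 9 lower, Sftpa1 -0.22 and Lpcat1 -0.20), and type I cell genes one of 0.01 (Pdpn 0.22 and Clic5 0.11). Endothelial genes had a median of 0.08, with 6 of 11 higher, and Calcrl, a receptor of the vessel wall, differed by 0.46 and Kdr by 0.17. Smooth muscle genes had a median of -0.09 (Cnn1 -0.52 and Tagln -0.15), skeletal muscle genes of -0.17 (Acta1 -0.61 and Tnnt3 0.24) and erythroid genes of -0.15, with 7 of 7 lower (Alas2 -0.45 and Hemgn -0.58). Mast cell genes had a median of -0.35, with 7 of 8 lower, although Kit differed by 0.23 and Cma1 by -0.50.

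The lists of immune cells gave 0 calls as well. Macrophage genes had a median of -0.08 (Cd163 -0.39 and C1qc -0.26) and neutrophil genes of -0.22 (Csf3r -0.48 and S100a9 -0.54). B and plasma cell genes had a median of -0.13, with Mzb1, a chaperone of antibody secretion, at -0.57 and Tnfrsf17 at -0.53, and T cell genes one of 0.15 (Cd6 0.27 and Cd4 -0.10). All 11 NK and cytotoxic cell genes were higher, by 0.02 to 0.24 with a median of 0.11 (Ncr1 0.20 and Klrb1a 0.24), yet 8 of them were lower in the shared slide of the males. The 7 MHC class II genes, which present antigen, were lower by a median of -0.13 (RT1-DMa -0.20 and RT1-Bb -0.15), and all 7 were also lower in that slide. With the slide as a fixed block some list medians turned or grew, to -0.01 for T cell, -0.05 for NK and cytotoxic cell, 0.10 for surfactant and type II cell and 0.03 for erythroid genes and 0.19 for p53 targets, and to -0.77 for neutrophil and -3.67 for cardiac muscle genes.

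Interferon-stimulated genes had a median of 0.07 (Rsad2 0.49) and 20 chemokine genes one of -0.04. The list of TNF, interleukin 1 and NF-kB genes had a median of -0.02, with Nfkb2 at -0.14 and Tnf itself at 0.29. In the list of type 2 immunity and chitinase genes the median was -0.10 (Chia -0.34 and Postn 0.25). The signaling and stress lists were near 0 too. The medians were -0.02 for p53 targets (Zmat3 0.24 and Aen 0.21), -0.04 for heat shock genes (Hsph1 -0.49 and Hspb8 -0.21) and -0.05 for the unfolded protein response (Sdf2l1 -0.19 and Calr -0.19). Second probes of Zmat3 and Aen differed by 0.09 and -0.02. Glucocorticoid-responsive genes were lower in 12 of 12, with a median of -0.22 and 0 calls, and the median was -0.46 in males and -0.02 in females (Pdk4 -0.41 and Mt1 -0.31).

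Metabolic and growth genes differed little over all rats. The medians were -0.06 for hypoxia and glycolysis (Eno1 -0.13 and Pkm -0.15), -0.06 for cholesterol and fatty acid synthesis (Lss 0.23 and Acaca 0.25) and -0.07 for fatty acid oxidation (Angptl4 -0.30). A second probe of Pkm differed by -0.54. Of 25 oxidative phosphorylation genes, 23 were lower, with a median of -0.06 and no difference beyond -0.18 (Ndufa4 -0.13 and Ndufb5 -0.14). In the shared slides 21 of the 25 were lower in males and 22 in females. With the slide as a fixed block the medians were -0.19 for oxidative phosphorylation and -0.20 for fatty acid oxidation. The 28 cytosolic ribosomal protein genes had a median of 0.01 over all rats (Rps14 -0.09 and Rpl8 0.09). Of 23 cell cycle genes 20 were lower with a median of -0.06. Tyms, the thymidylate synthase of DNA precursor synthesis, differed by -0.40 and was named because of its small p-value within the list. Its groups did not overlap (-2.88 to -2.31 against -3.23 to -2.95, exact permutation p = 0.00216), as in 52 of 21132 genes (0.246%). Pcna differed by -0.13. The extracellular matrix and TGF-beta list had a median of 0.04, and Tnc, the matrix protein tenascin C, was called higher at 0.65 (standard error 0.29), but in only 4 of the 12 fits that left out a rat. The tubulin list had a median of 0.01, and the neuronal tubulin Tubb3 was called lower at -0.70, with a difference of 0.11 under the normexp correction and no call without rat 11, 17, 33 or 37.

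**Figure D4:**
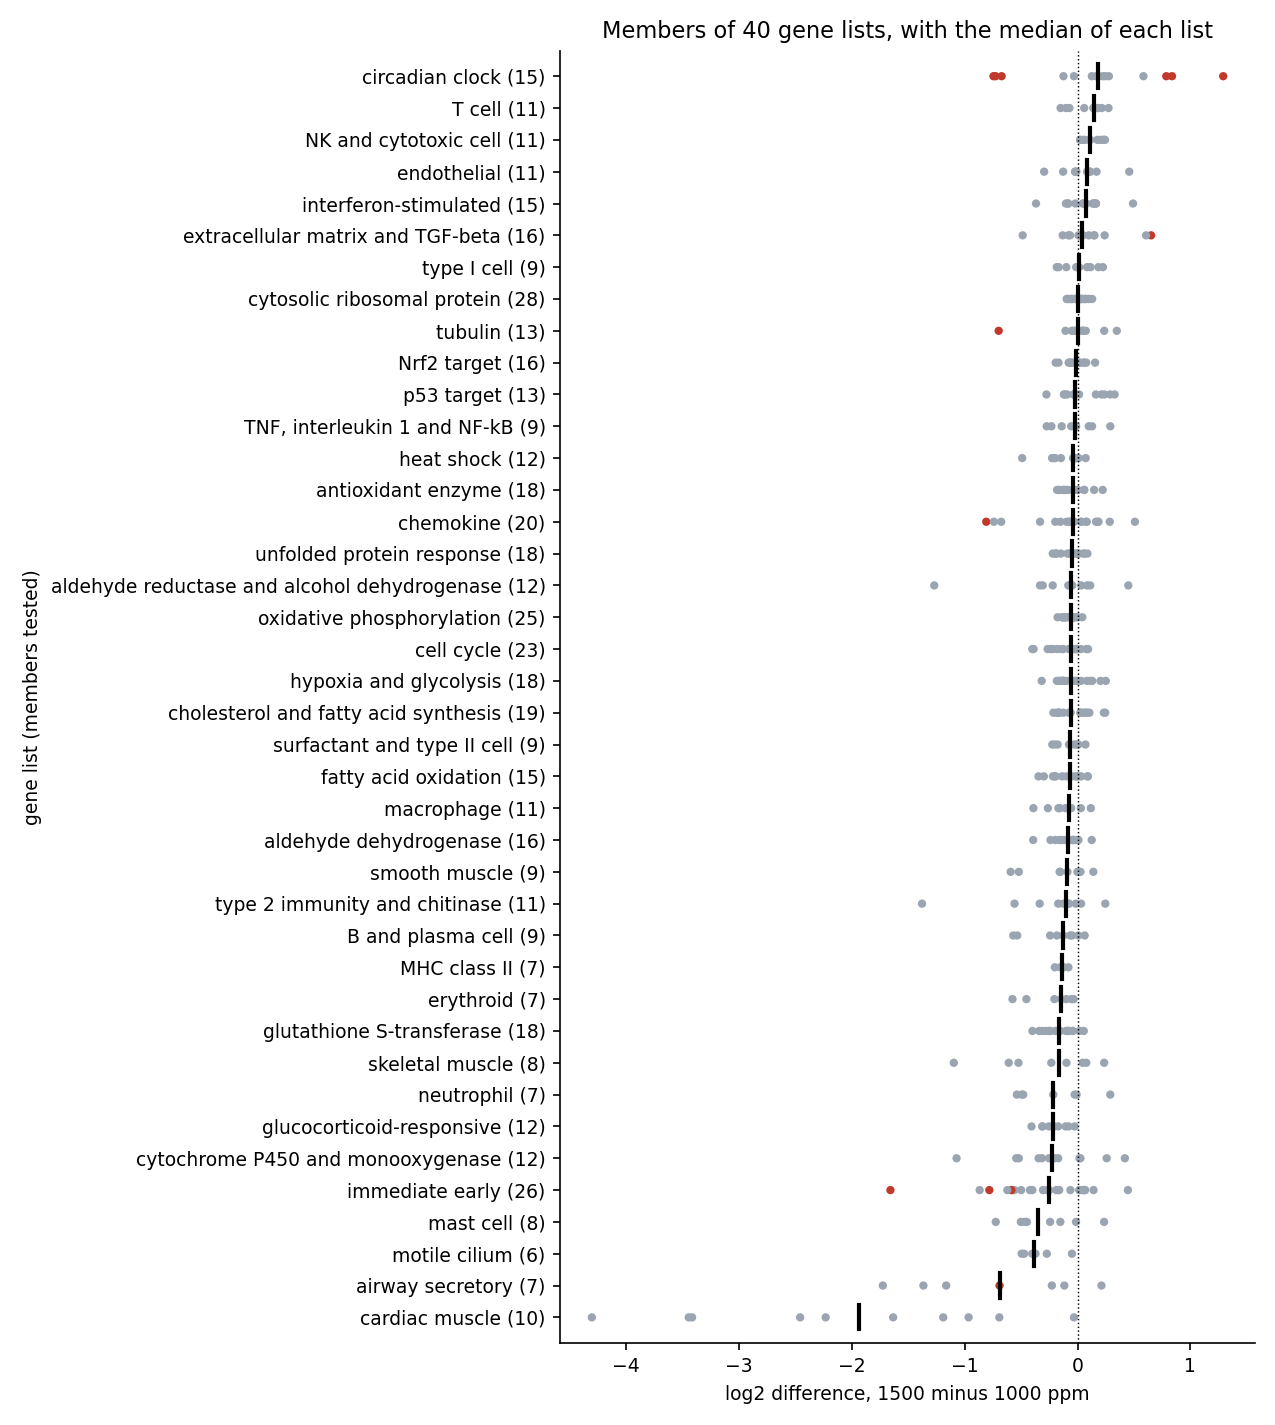
Log2 differences between 1500 and 1000 ppm (horizontal axis) of the tested members of 40 gene lists (vertical axis, number of tested members in parentheses), with red points for called genes, grey points for the others, black bars for list medians and a dotted line at the median of all genes (0.01). Red points are found in 6 of the lists, and the cardiac muscle list has the lowest median, -1.93.

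The 40 lists held 539 distinct genes that were tested. Of these, 4 (0.742%) were called higher and 9 (1.67%) lower, against 0.298% and 0.308% of all genes. An unadjusted limma p-value under 0.05 was found for 42 (7.79%), against 5.12% of all genes. Those called higher include Ciart, which passed the filter on dim probes only through the high-dose group. These lists were chosen with earlier results of the same arrays known, so the shares describe the lists and are no test of them.

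Within males alone 342 genes (1.62%) passed the same thresholds, 199 (0.942%) higher and 143 (0.677%) lower. Within females 372 (1.76%) did, 163 (0.771%) higher and 209 (0.989%) lower. Only 12 genes passed in both sexes in the same direction. No gene had an adjusted limma p-value under 0.05 in males, in females or for the difference between the sexes, for which 1153 (5.46%) had an unadjusted p-value under 0.05. Among the genes with the smallest p-values were Fign (1.18 in males and -0.23 in females), the defensin Defb30 (0.17 and -1.73) and the lipid droplet gene Cidec (-0.92 and 1.11), and limma's adjusted p-value for the difference was 0.349 in each. Tspan18 (-0.25 and 0.33) and Hcls1 (-0.68 and 0.39) followed with 0.897. All 3 high-dose females and the middle-dose female 33 were not well above background for Defb30, so its difference in females is measured against background. Because each slide held 1 sex, a difference between the sexes cannot be told apart from one between slides.

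With the slide as a fixed block 541 genes (2.56%) were called, 266 higher and 275 lower. The smallest adjusted limma p-value was then 0.172. Of the 128 genes called over all rats, 69 were called in the same direction with this block. The clock genes Dbp, Per2, Ciart, Bmal1, Npas2 and Nfil3 were among those that were not. Fos, Dusp1, Nr4a1, Ccl11, Plpp4, Slitrk6 and Sbsn were called in both fits. The fit with the block rests on the middle-dose rats 13 and 33. These held the highest middle-dose levels of Fos, Dusp1 and Ccl11 and the lowest of Plpp4.

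**Figure D5:**
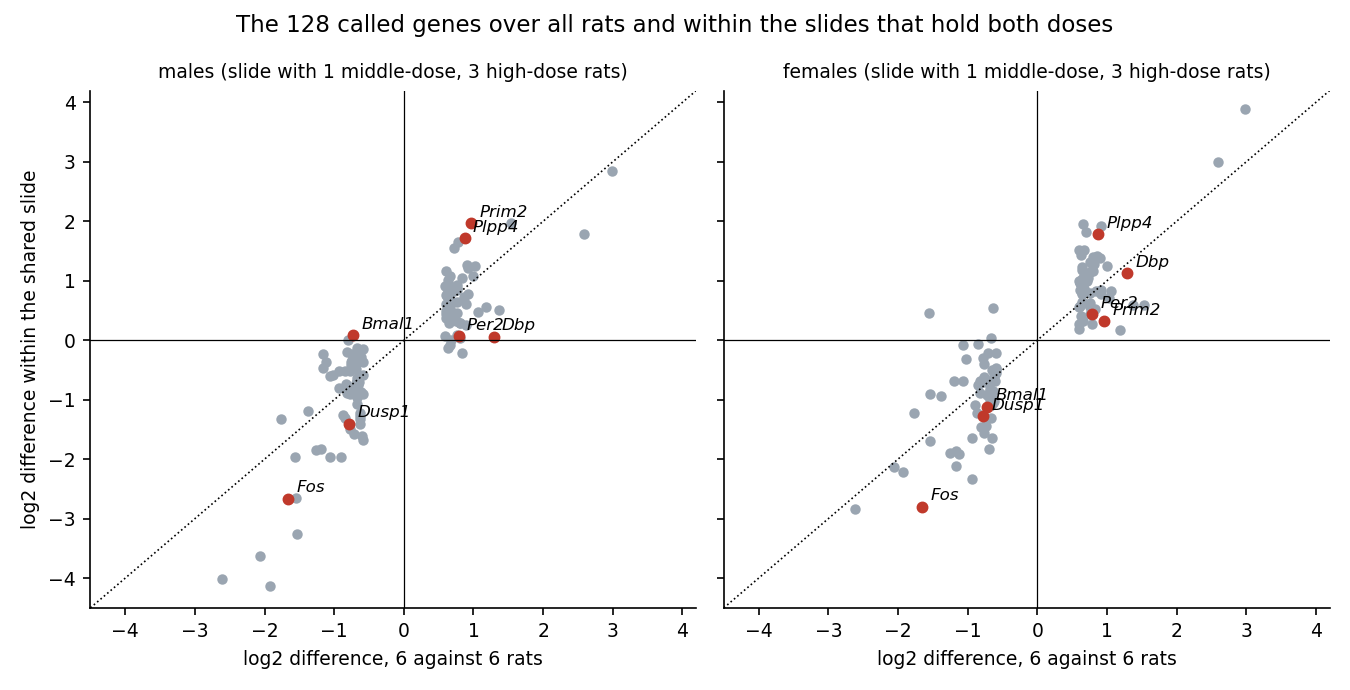
Log2 differences of the 128 called genes over 6 against 6 rats (horizontal axes) and within the slide that holds both doses (vertical axes) for males (left) and females (right), with the diagonal dotted and selected genes in red. Dbp (0.06), Per2 (0.07) and Bmal1 (0.09) lie near 0 in the male slide, while Fos lies at -2.67 in males and -2.80 in females.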

How the data were processed

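The deposited intensities are the authors' Agilent Feature Extraction signals (version 11.5.1.1 per the file headers), background-subtracted and not scaled between arrays. Their series-wide table matched these intensities to within 0.5% in 99.6% or more of the probes on each of the 12 arrays. Of 30367 probes, 18355 (60.4%) were matched by accession to 15443 symbols of the assembly GRCr8. Control spots and outlier spots were left out, spots of a probe averaged, and log2 signals set to the 75th percentile of the array. Probes well above background on at least 5 of 6 arrays of either dose were retained. Each gene was represented by its probe of highest mean level over the 12 arrays, giving 21132 genes or unnamed probes. R 4.3.3 with limma 3.58.1 (lmFit and eBayes) was fitted to these arrays. The thresholds for a call, a 1.5-fold difference and p under 0.05 without adjustment, are those of the study's methods. Exact permutation tests are two-sided over 924 assignments.

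The members and lists were chosen with earlier results of these data known. Named are the 8 largest called differences each way with a symbol, well above background in both doses and of 1 direction in both sexes; per list up to 4 called genes, or the 2 with the smallest p-values; and 3 genes each way for the sexes. Ciart, Nr1d2, Btg2, Junb, Nr4a2, Ier2, Egr1, Cyp2b2, Cyp2s1, Arc, Scgb1a1, Bpifa1, the clock and immediate early genes given without a call, and the plasma protein genes were named after their values were seen. Some genes that this rule names are not reported here. The fit was tested on simulated data. Alternatives were normexp, quantile and median scaling, the unscaled table, other filters, all 24 arrays, slide as a fixed or random block, array weights, sex as a covariate, the methods' t-test, each probe counted, and each rat left out.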

Additional observations from a re-analysis of the deposited data

Results flagged for a closer look

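In 9 of 217 groups of 6 rats tested over the named genes, 1 rat lay far from the other 5, where chance gives about 1 in 20. The value given is the gap to the nearest rat divided by the range of the group. In the middle-dose group it was 0.666 for Idi2 in rat 11 (highest) and 0.642 for Tnnt3 in rat 32 (lowest). It was 0.641 for Nfkb2 and 0.635 for Pkm in rat 13 (both highest), 0.696 for Por in rat 31 (lowest) and 0.679 for Pcna in rat 32 (lowest). In the high-dose group it was 0.757 for Btg2 and 0.675 for Zmat3 in rat 38 (both highest) and 0.686 for Tubb3 in rat 18 (highest). Of these genes Idi2 and Tubb3 were called, and Idi2 was not called without rat 11 or any of 6 others.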

How the results depend on the processing

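No paired analysis was possible because the rats of the 2 doses share no replicate number. The counts of higher and lower genes were 128 and 18 with a normexp background correction, 22 and 284 in the authors' table without scaling, 36 and 37 with probes well above background on all 12 arrays, 266 and 275 with the slide as a fixed block, and 121 and 177 with array weights. Keeping dim probes gave 165 higher genes. The unscaled table moved the median of all genes by -0.17. Leaving out 1 rat gave 55 to 126 higher genes (126 without rat 32) and 58 to 129 lower genes (116 without rat 36 and 129 without rat 37). The count at an adjusted p-value under 0.05 was 0 to 1 with a rat left out, with 1 unnamed probe passing without rat 37, and 0 in the other settings. The difference between the sexes gave 9 genes with the slide as a fixed block and 0 to 8 with a rat left out, 8 without rat 13 and 2 without rat 36.

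Signs turned for some genes. Under the normexp correction the difference was 0.13 for Hemgn, 0.14 for Cd4, 0.0091 for Osgin1, 0.11 for Tubb3, 0.28 for Defb30, 0.024 for Ambp, 0.11 for Apoa4, 0.21 for Fgl1 and 0.11 for Arc. In the unscaled table it was -0.055 for Clic5, -0.0015 for Kdr, -0.075 for Rpl8, -0.074 for Cidec and -0.13 for Tspan18. With the slide as a fixed block it was 0.14 for Hemgn, 0.011 for Sdf2l1, -0.042 for Lss and -0.18 for Cidec, and with array weights -0.046 for Cidec. With a rat left out it ranged from -0.069 to 0.29 for Cidec and from -0.026 to 0.10 for Tspan18. The cause was not tested. Over the named called genes, 310 values under other settings kept direction and call, 60 lost the call and 5 turned, and with a rat left out 305 kept both and 79 lost the call. Signal over background limits the dimmest genes, such as Ambp and Fgl1, which were well above background on 2 of 6 high-dose arrays.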

Other observations

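Some genes called lower at 1500 ppm encode proteins of the blood plasma. They were picked from the called genes after their values were seen, no list of such genes was tested, and the values describe these genes alone. Fgg, a chain of fibrinogen, ranged from 0.64 to 1.75 (median 1.18) at 1000 ppm and from -0.26 to 0.87 (median 0.60) at 1500 ppm, a difference of -0.75 (standard error 0.24). The kininogen genes Kng1 and Kng2, whose probes may share signal because the genes are close relatives, differed by -0.67 and -0.66, and within the shared slides of males and females Kng1 differed by -0.96 and -0.85. The doses overlapped in each of these 3 genes. The dimmer Ambp (-1.54), Fgl1 (-0.85) and Apoa4 (-0.71) were well above background on 2, 2 and 4 of the 6 high-dose arrays and passed the filter on dim probes only through the middle-dose group, so their differences are set against arrays in part at background. Under the normexp correction these 3 differed by 0.024, 0.21 and 0.11.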
